A study of Mus musculus with 15 samples.

Results

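The genes examined here were 8 transcription factors of the developing brain and retina that are known as targets of Pax6 in those tissues: Rax, Lhx2, Otx2, Neurog1, Neurog2, Atoh7, Neurod1 and Crx. They were chosen by name from the 22342 protein-coding genes of chromosomes 1 to 19 and X, and each was followed over its mm9 gene body plus 50 kb on either side. The question was whether H3K4 methylation, RNA polymerase II (Pol2) or Pax6 was present at these neural genes in newborn lens and in a lens cell line, and whether it differed after knockdown of Pax6.

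ChIP-seq was compared over 9 lists of enriched regions, each deposited for 1 sample. Whether the H3K4me2 lists pool several libraries is open from their peak names, and no list gives values by replicate. H3K4me1, H3K4me2, H3K4me3, Pol2 and Pax6 were profiled in αTN4 cells with a control shRNA, and the same 3 methylation marks in αTN4 cells with a Pax6 shRNA (Pax6 KD). The lens sample holds H3K4me2 of lenses from CD-1 mice at postnatal day 1. αTN4 cells derive from mouse lens epithelium immortalised by SV40 T antigen, and both αTN4 populations carry a lentiviral shRNA construct and were kept under puromycin, so that neither stands for untreated cells. The methods of the study give the construct of the knockdown cells as Pax6 sh2, and no other construct enters here. The lens was taken whole, so its epithelial and fibre cells, and any tissue left on it, are in 1 sample. RNA-seq of the αTN4 cells was not analysed here.

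Methylation of lysine 4 of histone H3 marks regulatory DNA. In general, H3K4me3 is concentrated at starts of transcription in use or held ready, H3K4me1 at enhancers, and H3K4me2 at both. Pax6 is a paired-box and homeobox factor needed for the lens, the retina and parts of the brain, and the 8 genes act in the neural branches of that programme. Rax, Lhx2 and Otx2 set up the eye field and the forebrain, the proneural bHLH factors Neurog1, Neurog2, Atoh7 and Neurod1 start neuronal differentiation, and Crx directs photoreceptor genes. Lens cells form none of these neurons.

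Regions at these genes fell on DNA of very different base composition. The 250 bases before RefSeq starts are shown for 5 members because between them they span the patterns described below. Lhx2, at the internal start where the αTN4 Pol2 and H3K4me3 peaks lay, and Neurog2 had αTN4 peaks at their starts, while Neurog1, Atoh7 and Crx had them in lens alone. The sequences are from RefSeq and were placed on mm9 by exact match, 5′ to 3′ in the direction of transcription. Capitals mark CpG dinucleotides, except in Crx, where they mark the word GGATTA. Read on the opposite strand this is TAATCC, which the Otx and Crx homeodomains are known to bind.
Lhx2, chr2:38206578-38206827, plus strand: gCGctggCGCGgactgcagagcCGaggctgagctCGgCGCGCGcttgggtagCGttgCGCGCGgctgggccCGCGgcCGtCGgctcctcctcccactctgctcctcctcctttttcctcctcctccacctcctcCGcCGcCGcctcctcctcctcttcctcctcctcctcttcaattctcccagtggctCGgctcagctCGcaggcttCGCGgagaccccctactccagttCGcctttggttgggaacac
Neurog2, chr3:127335804-127336053, plus strand: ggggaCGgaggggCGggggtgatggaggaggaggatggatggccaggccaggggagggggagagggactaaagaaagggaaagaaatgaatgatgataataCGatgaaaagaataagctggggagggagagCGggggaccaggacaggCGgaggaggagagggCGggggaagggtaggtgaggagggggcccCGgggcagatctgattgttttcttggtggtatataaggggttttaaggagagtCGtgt
Neurog1, chr13:56353542-56353791, minus strand: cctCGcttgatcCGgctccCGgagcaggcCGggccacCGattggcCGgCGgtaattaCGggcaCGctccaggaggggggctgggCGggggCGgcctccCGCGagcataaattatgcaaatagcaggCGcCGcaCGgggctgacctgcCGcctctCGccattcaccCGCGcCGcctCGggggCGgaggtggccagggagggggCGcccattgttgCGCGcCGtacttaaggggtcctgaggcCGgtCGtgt
Atoh7, chr10:62562283-62562532, plus strand: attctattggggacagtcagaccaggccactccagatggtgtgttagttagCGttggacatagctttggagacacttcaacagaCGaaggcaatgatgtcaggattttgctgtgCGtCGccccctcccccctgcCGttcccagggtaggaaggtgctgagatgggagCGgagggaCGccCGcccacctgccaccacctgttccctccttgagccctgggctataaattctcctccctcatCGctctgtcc
Crx, chr7:16465305-16465554, minus strand: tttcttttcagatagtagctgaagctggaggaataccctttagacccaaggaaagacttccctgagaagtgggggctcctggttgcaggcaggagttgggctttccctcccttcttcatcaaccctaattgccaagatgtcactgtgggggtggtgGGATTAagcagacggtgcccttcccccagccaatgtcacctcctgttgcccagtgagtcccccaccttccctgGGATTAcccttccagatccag

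The Lhx2 stretch holds 24 CpG, the Neurog1 stretch 29, Atoh7 9, Neurog2 8 and Crx 1. Of these stretches that of Neurog1 had the most CpG, and Neurog1 had no αTN4 region in its window. A relation between the number of CpG and the αTN4 regions was not tested. The word TAATCC, on either strand, occurs in 6.25% of 32851 RefSeq promoters of this length, and it occurs 2 times before the start of Crx. The E-box CANNTG, the general binding word of bHLH factors, was found 3 times before Atoh7 and in none of the other 4, against 66.2% of all promoters, and TAATTA, a general homeodomain word, was found once, before Neurog1, against 4.84%. Both words read the same on either strand. These matches describe the letters of the stretches only.

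The starts of the members carried H3K4me2 in lens far more often than in αTN4 cells. A region was counted at a start when it lay within 2 kb of a start of a protein-coding transcript. In lens, all 8 members had an H3K4me2 peak there, against 66.8% of all genes. In control αTN4 cells, H3K4me2 was at the starts of Lhx2 and Neurog2, 2 of 8, against 58.2% of all genes, and in Pax6 KD cells at the same 2, against 57.1%. Lhx2 was the 1 member with H3K4me3 at a start, in control cells (all genes 49.1%) and in Pax6 KD cells (47.8%), and the 1 member with Pol2 there (48%). It also had the 1 H3K4me1 island at a start in control cells (all genes 36%), and no member had one in Pax6 KD cells (16.8%). None had a Pax6 peak at a start, where 0.255% of all genes had one.

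**Figure D1:**
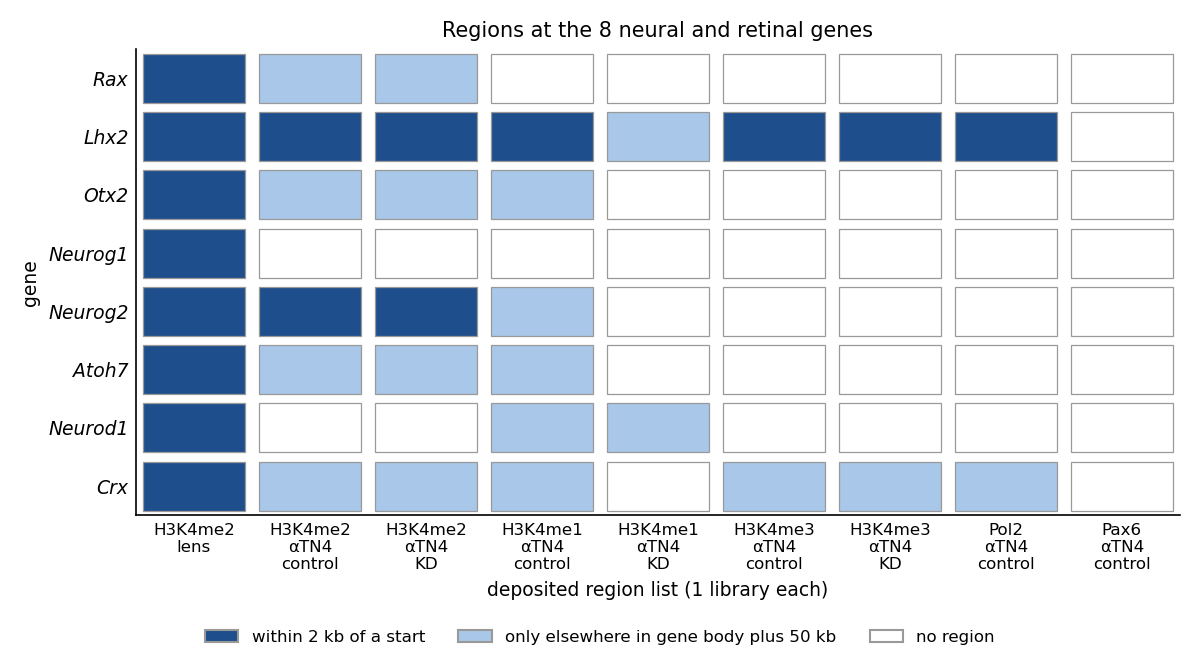
Presence of regions at the 8 genes (rows) in the 9 region lists (columns). Dark blue marks a region within 2 kb of a start, light blue a region elsewhere in the gene body plus 50 kb, and white no region. The lens H3K4me2 column is dark for 8 of 8 genes. The αTN4 columns other than Pax6 and Pax6 KD H3K4me1 are dark for Lhx2, and those of H3K4me2 also for Neurog2.

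Rax, Otx2, Neurog1, Atoh7, Neurod1 and Crx, 6 of 8, had lens H3K4me2 at a start and no region of the other 8 lists there, a pattern held by 10.2% of all genes. The peaks at those 6 starts were of very different form. The depth of the peak libraries is unknown, so only presence, width and rank within a list were compared between lens and αTN4 cells.

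Among the eye field and progenitor genes, Rax, a homeobox gene of the retinal primordium, lay whole within a single lens domain. This H3K4me2 peak measured 12290 bp with a fold enrichment of 15.7. The gene is 1 record on the minus strand of chromosome 18 from 66094293 to 66098743. In the control αTN4 list the window of Rax held 5 H3K4me2 peaks, of which 1, of 997 bp with a fold of 6.90, lay in the gene 3.33 kb downstream of the start, and the other 4 lay 13.2 to 17.2 kb downstream. No Pol2, H3K4me1, H3K4me3 or Pax6 region lay in its window.

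Lhx2, a LIM-homeodomain factor of the optic vesicle, was the member with most marks in αTN4 cells. Its gene record runs from 38194801 to 38225253 on the plus strand of chromosome 2, with 4 annotated starts. In lens, a peak of 2227 bp (fold 23.5) lay at the first start and a peak of 13414 bp (fold 26.9) covered the internal starts. In control αTN4 cells, H3K4me2 peaks of 1026 bp (fold 19.5), 1373 bp (fold 19.9) and 2190 bp (fold 17.3) lay within the same stretches, at percentiles 91.3, 91.9 and 86.3 of fold in their list. The Pol2 peak (chr2:38206119-38206960, fold 11.3, percentile 56.5) and the H3K4me3 peak (chr2:38206725-38206994, fold 6.79, percentile 13.9) lay at the internal start at 38206828, so that Pol2 ranked near the middle of its list and H3K4me3 low in its own. At the 5′ end of the record H3K4me2 was the 1 mark found in αTN4 cells, so with that end as the 1 start counted, no member had Pol2, H3K4me1 or H3K4me3.

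Otx2, a homeobox factor of forebrain and of photoreceptor and pigment cells, was covered in lens by 5 separate H3K4me2 peaks near its starts. The widest was 3051 bp with a fold of 8.95, and the others spanned 510 to 2911 bp. In control αTN4 cells its window held an H3K4me2 peak of 1171 bp (fold 9.77) 11.3 kb upstream, under an H3K4me1 island of 43 ChIP reads over 28 input reads, and a second H3K4me2 peak of 247 bp 20.6 kb downstream. Neither αTN4 peak overlapped a lens peak.

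Of the proneural bHLH genes, Neurog2, which drives cortical and early retinal neurogenesis, was the 1 with αTN4 H3K4me2 at its start. The lens peak there measured 5160 bp with a fold of 24.8. The control αTN4 peaks, of 1805 bp (fold 8.70) and 810 bp (fold 7.01), fell inside it, at percentiles 59.6 and 50.5. No Pol2 or H3K4me3 region lay in the window of Neurog2.

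Neurog1, which specifies sensory and forebrain neurons, had no region of any αTN4 list within 50 kb. In lens its start carried a peak of 1564 bp with a fold of 11.3, the narrowest of the widest start peaks of the 8 members. Atoh7, needed for retinal ganglion cells, had a lens peak of 2404 bp with a fold of 33.7, at percentile 99.4 the highest rank among the members. Its nearest regions in control αTN4 cells, an H3K4me2 peak of 798 bp and an H3K4me1 island of 26 ChIP reads, lay 28.0 and 27.9 kb downstream in an intron of Mypn. Neurod1, a factor of differentiating neurons and photoreceptors, was covered by a lens peak of 8410 bp with a fold of 25.3. In αTN4 cells its window held 1 control H3K4me1 island of 48 ChIP reads over 41 input reads, 10.9 kb downstream in an intron of Cerkl, and no H3K4me2, H3K4me3 or Pol2.

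Crx, the cone-rod homeobox factor, had the most separate lens peaks at its starts among the members, ahead of Otx2 with 5. The lens H3K4me2 of Crx was split into 10 peaks within 2 kb of its 5 annotated starts. The widest was 2023 bp with a fold of 7.64, and the others had folds of 3.42 to 4.79. No αTN4 region lay near the gene. An H3K4me3 peak of 1670 bp (fold 33.6) and a Pol2 peak of 1097 bp (fold 24.5) in control αTN4 cells lay upstream of Crx at the start of Sepw1, the gene of selenoprotein W. A second Pol2 peak, of 289 bp (fold 4.89), lay 35.1 kb upstream between genes. Crxos1, an annotated gene in the Crx window, and Crx cannot be told apart by peaks, which carry no strand.

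**Figure D2:**
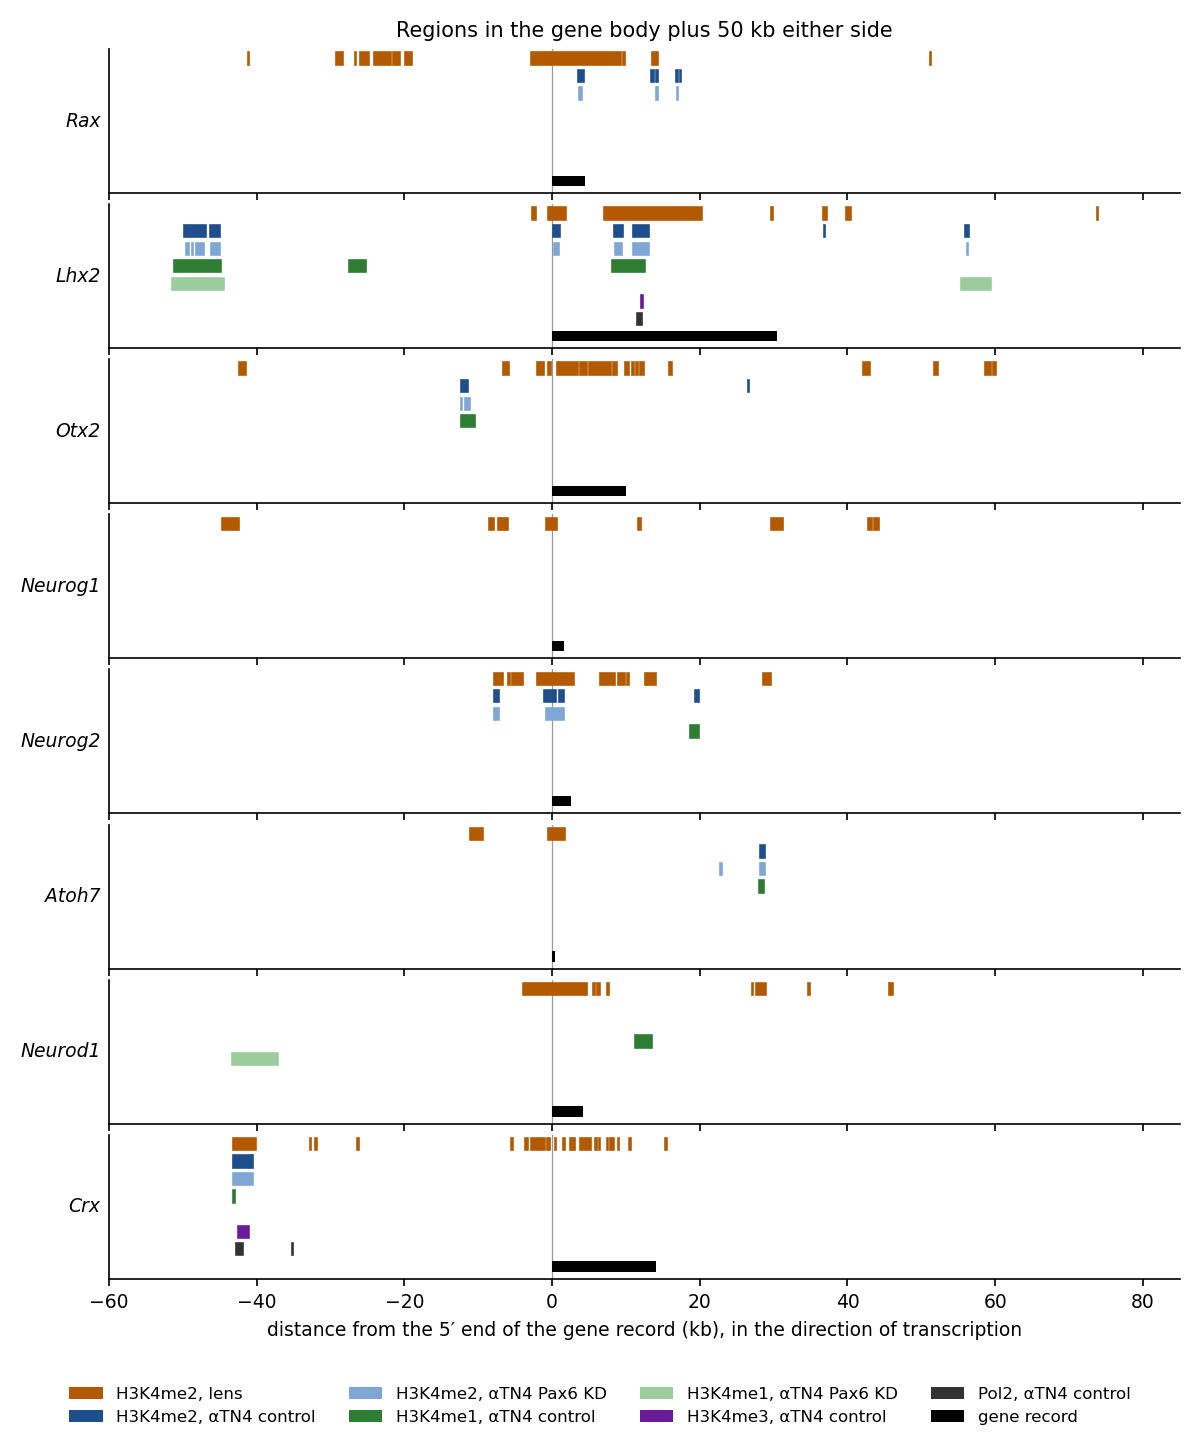
Regions in the window of each gene, by distance in kb from the 5′ end of the gene record along the direction of transcription, with a row of blocks for each of 7 lists and the gene record in black. Pax6 (no region) and Pax6 KD H3K4me3 are not drawn. Lens H3K4me2 (top row of each panel) lies at or near the start in every panel, while αTN4 regions lie over the starts of Lhx2 and Neurog2.

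Lens H3K4me2 at these genes was broad. Taking the stretch from 5 kb before the first start to 5 kb after the last, lens peaks covered 85.7% of it at Neurod1, 80.0% at Rax, 63.6% at Otx2, 62.3% at Lhx2, 61.9% at Neurog2, 42.1% at Crx, 24.0% at Atoh7 and 15.6% at Neurog1. The median of the members was 62.1%, against 12.8% over all genes and 20.5% over the genes with a lens peak at a start. The lens lineage markers, read in the same way, had a median of 61.4%, close to that of the members. Only 36 genes had more cover than Neurod1 and 54 more than Rax. Atoh7 and Neurog1, by contrast, had 5700 and 9952 genes above them, so that narrow and broad domains both occurred among the proneural genes. In control αTN4 cells the cover was 26.1% at Neurog2, 19.7% at Lhx2, 9.97% at Rax and 0 at the other 5, with a median of 0 against 9.94% over all genes. In Pax6 KD cells it was 25.5%, 18.8% and 5.06% at the same 3 genes.

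**Figure D3:**
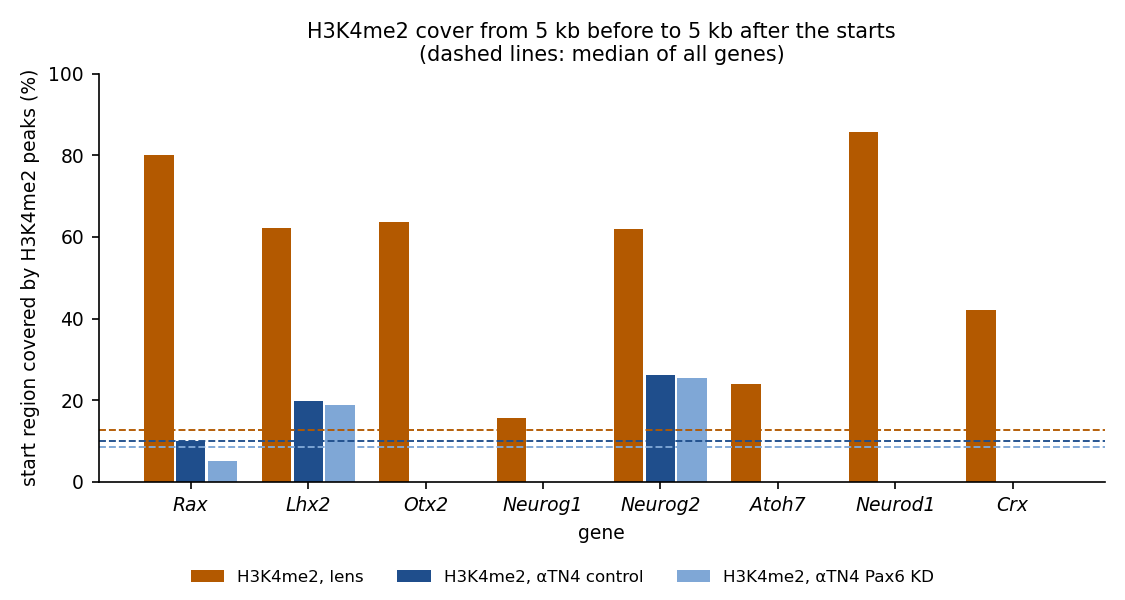
Percent of the start region (5 kb either side of the starts) covered by H3K4me2 peaks at each gene in lens, control αTN4 and Pax6 KD αTN4, 1 list each, with dashed lines at the median of all genes. Lens cover reaches 85.7% at Neurod1 and 80.0% at Rax, and αTN4 cover stays at or below 26.1%.

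Base composition at the starts was set beside these patterns. A start was called CpG-rich when the 1 kb around it had a ratio of observed to expected CpG of at least 0.6 and a GC content of at least 50%. This held for 6 of 8 members, against 48.1% of all genes, the exceptions being Rax (ratio 0.505) and Crx (ratio 0.223). Lens H3K4me2 lay at all 6 CpG-rich members, as it did at 99.3% of all CpG-rich genes, a share close to theirs. It also lay at Rax and Crx, where the share among genes without a CpG-rich start was 36.7%. In control αTN4 cells H3K4me2 was at 2 of the 6 CpG-rich members, against 88.2% of all CpG-rich genes. Lens H3K4me2 with no other list was found at 4 of these 6, against 10.4% of CpG-rich genes.

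Over the wider windows more members had a region, and some of these regions lay nearer to other genes. Lens H3K4me2 was in the windows of 8 of 8 members (all genes 84.9%), with 86 peaks, of which 66 had a member's start as their nearest. Control αTN4 H3K4me2 was in 6 of 8 windows (84.4%) with 22 peaks, and Pax6 KD H3K4me2 in 6 of 8 (84.1%) with 18. H3K4me1 was in 6 of 8 windows in control cells (72.8%) and in 2 of 8 in Pax6 KD cells (52.5%). H3K4me3 was in 2 of 8 windows in control (69.8%) and in Pax6 KD cells (68.8%), and Pol2 in 2 of 8 (70.1%), in each case those of Lhx2 and, at Sepw1, of Crx.

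No Pax6 peak of αTN4 cells lay in any of the 8 windows, where 3.48% of all genes had one. The list is short, with 504 peaks, and the Pax6 peaks of lens were not analysed here. Measured to the nearest edge of the gene record, the nearest Pax6 peak was 259.3 kb from Neurod1, 291.5 kb from Neurog2, 454.3 kb from Lhx2 and 882.6 kb from Atoh7. It was 1.81 Mb from Otx2, 5.84 Mb from Neurog1, 7.66 Mb from Rax and 8.87 Mb from Crx, against a median of 1.83 Mb over all genes. With so low a share over all genes, finding none at 8 genes does not set them apart.

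Few of the lens H3K4me2 peaks in the windows had an αTN4 counterpart, while the share of αTN4 peaks with a lens counterpart was near that of all αTN4 peaks. Of the 22 control αTN4 peaks, 11 overlapped a lens peak (50%, 95% Wilson interval 30.7 to 69.3), against 41.3% of all αTN4 peaks. Of the 86 lens peaks, 8 overlapped a control αTN4 peak (9.30%, 4.79 to 17.3), against 45.4% of all lens peaks. By gene these 8 were 3 at Lhx2, 2 at Rax, 2 at Neurog2 and 1 in the Crx window, at Sepw1. These intervals cover counting error only, and peaks of 1 gene are not independent of each other.

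Other regulators of the same tissues, listed by family, were marked in the same way in lens. In αTN4 cells they were marked less often than all genes. Lens H3K4me2 lay at a start of 11 of 12 other proneural and neurogenic bHLH genes. It lay at 18 of 18 other retinal regulators and 10 of 10 cortical regulators. The total was 39 of 40, against 66.8% of all genes. In control αTN4 cells H3K4me2 was at 14 of the 40 (all genes 58.2%) and H3K4me3 at 12 (49.1%). Pol2 was at 11 (48%) and control H3K4me1 at 4 (36%). In Pax6 KD cells H3K4me1 was at none of the 40, against 16.8% of all genes. Lens H3K4me2 with no other list marked 25 of 40, or 62.5%, against 10.2% of all genes. Among the 25 were Atoh1, Ptf1a and Olig2 of the bHLH genes and Six6, Nrl and Pou4f2 of the retinal genes. Tbr1 and Emx1 of the cortical genes were also among them. Over the 40, the median lens cover of the start region was 42.1%, and the median control αTN4 cover 0. The pattern of Lhx2, with 7 lists, was that of 3403 genes, or 15.2% of all, and in the lists of regulators and lens markers it was shared by Mitf, Hes6, Bhlhe22, Six3 and Cryab. The pattern of Neurog2, H3K4me2 in lens, control and KD without other marks, was rarer, with 527 genes or 2.36%, and Rorb and Thrb shared it among the retinal regulators.

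**Figure D4:**
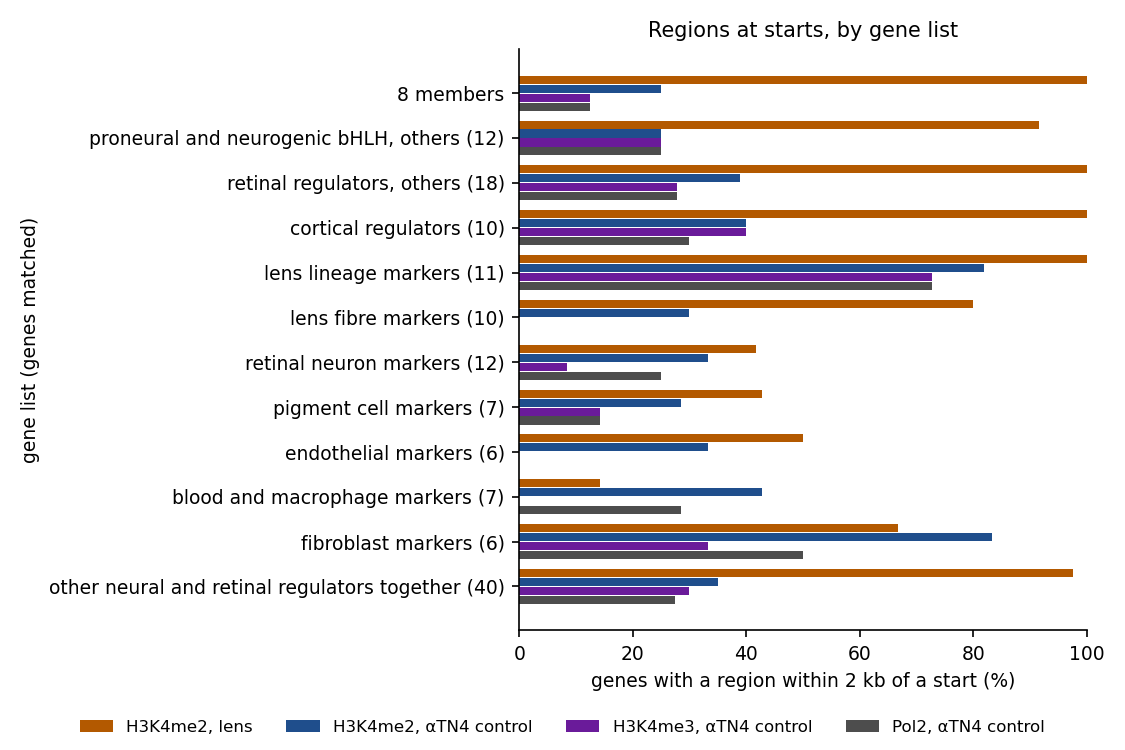
Percent of genes with a region within 2 kb of a start, by gene list, for lens H3K4me2 and for control αTN4 H3K4me2, H3K4me3 and Pol2. The 8 members and the other neural and retinal regulators have long lens bars and αTN4 bars of at most 40%. Lens lineage markers have long bars in both.

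Markers of the cell types that the samples could hold were read in the same way. Lens lineage markers had lens H3K4me2 at 11 of 11 starts, against 66.8% of all genes. They had control αTN4 H3K4me3 and Pol2 at 8 of 11 each (all genes 49.1% and 48%), with Pax6, Prox1, Maf and Cryaa among them. Foxe3, an epithelial lens factor, and Cdh1, E-cadherin, were marked in lens alone, so these defining genes of lens epithelium had no region of the αTN4 lists at their starts. Lens fibre markers had lens H3K4me2 at 8 of 10 and neither H3K4me3 nor Pol2 in αTN4 cells. Of 12 retinal neuron markers, 5 had lens H3K4me2 (Opn1sw, Stmn2, Elavl3, Snap25 and Tubb3), with a median cover of 1.63%. Among the genes that photoreceptors express, the cone opsin gene Opn1sw thus had lens H3K4me2, while Rcvrn, Sag, Arr3, Gnat1 and Pde6b had none, nor had Slc17a6 of ganglion cells. Control αTN4 H3K4me2 lay at 4 of the 12 retinal neuron markers (Opn1sw, Pde6b, Stmn2 and Tubb3), against 58.2% of all genes. Pol2 lay at 3 of them (Opn1sw, Stmn2 and Tubb3), against 48%. Opn1sw, Stmn2 and Tubb3 were thus marked in both lens and αTN4 cells. The counts in lens were 3 of 7 for pigment cells, 3 of 6 for endothelium, 1 of 7 for blood and macrophages and 4 of 6 for fibroblasts. The share over all genes was 66.8%. For control αTN4 H3K4me2 the counts were, in the same order, 2 of 7, 2 of 6, 3 of 7 and 5 of 6. All genes had 58.2% there. H3K4me2 can lie at genes that are silent, and the part of other cell types in the lens signal was not tested.

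Most of the control H3K4me1 islands at these genes were not called after knockdown. Of the 8 control islands in the windows, 1 overlapped a Pax6 KD island (12.5%, 95% Wilson interval 2.24 to 47.1), against 46.2% of all control islands, a share within that interval. With a flank of 100 kb in place of 50 kb the share kept was 43.3%, close to that of all islands. The 7 others held 20 to 83 ChIP reads and included the island of 4600 bp at the internal starts of Lhx2, with 83 ChIP reads over 52 input reads. The lists differed in size as a whole, with 38007 islands holding 3289553 ChIP reads in control cells and 18417 islands holding 1849269 in Pax6 KD cells, and its part in the islands not called at the members was not tested. The 1 kept island, 44.8 kb upstream of Lhx2 and nearest to the start of Dennd1a, went from 251 to 204 ChIP reads. Relative to the median change over 13763 islands paired 1 to 1, its log2 change in reads per kb was -0.12 (95% interval for counting error -0.39 to 0.15), so no change was detectable at this depth. Of the 3 Pax6 KD islands in the windows, 2 had no control island, against 6.93% of all KD islands, and 3 islands are too few to compare with that share. The 2 were 1 downstream of Lhx2 with 60 ChIP reads over 39 input reads and 1 upstream of Neurod1 with 86 over 84. By reads per kb they ranked low in the KD list, at percentiles 11.2 and 5.77. The island near Neurod1 did not pass an FDR of 1e-06.

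H3K4me2 was mostly kept. Of 22 control peaks in the windows, 16 overlapped a Pax6 KD peak (72.7%, 95% Wilson interval 51.8 to 86.8), against 82.5% of all control peaks, and 1 of 18 KD peaks, 22.7 kb downstream of Atoh7, had no control peak, against 7.34%. The 6 peaks not kept lay at percentiles 10.7 to 47.9 of fold (median 27.6). The kept peaks lay at 31.8 to 91.9 (median 55.5), so the ranges overlapped. Of the 6 not kept, 2 lay near Rax, 2 near Neurog2 and 1 each near Lhx2 and Otx2. The strongest of them, 23.4 kb downstream of Lhx2 with a fold of 6.64 in control cells, was also present in lens. It is printed here, with CpG in capitals, as an example of the peaks found in both lens and control αTN4 cells and not after knockdown. Another such peak, of 513 bp, lay 13.2 kb downstream of the start of Rax and is not printed.
Lhx2 downstream peak, chr2:38231433-38231687, plus strand: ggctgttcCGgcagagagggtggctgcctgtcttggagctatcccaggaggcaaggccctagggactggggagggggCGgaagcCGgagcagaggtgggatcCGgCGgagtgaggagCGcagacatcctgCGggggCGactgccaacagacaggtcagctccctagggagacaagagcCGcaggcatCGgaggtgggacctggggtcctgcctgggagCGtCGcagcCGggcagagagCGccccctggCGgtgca

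All 3 kept peaks of Rax and 6 of the 7 kept peaks of the Lhx2 window had a lower percentile of fold after knockdown. Over all 16 kept peaks the percentile of fold changed by a median of -6.09 points (range -26.2 to 9.87), against -1.85 over all kept peaks of the genome (quartiles -9.57 and 5.75). It was lower at 12 of 16, against 57.4% of all kept peaks, and lower by 10 points or more at 7 of 16, against 24%, a limit chosen after the values were seen. These 7 were the 3 kept peaks of Rax, with changes of -26.2, -17.6 and -16.8, and 4 peaks of Lhx2, with changes of -17.7 and -10.9 at the starts, -13.6 at the peak 2.44 kb from a start and -21.0 at a peak 42.6 kb downstream. The other 3 kept peaks of the Lhx2 window, all nearest to the start of Dennd1a, changed by -5.07, 1.72 and -7.12. The 2 peaks at the starts of Lhx2 and the peak 2.44 kb from a start were, in the order 5′ to 3′, at percentiles 91.3, 91.9 and 86.3 in control cells and at 73.6, 78.3 and 75.4 in Pax6 KD cells. Peaks between percentiles 85 and 95 in the whole control list changed by a median of -2.51 points (quartiles -7.44 and 2.17). With 1 list per condition and no values by replicate, these changes have no replicate check.

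At Neurog2 the start peaks differed little, with percentiles of 59.6 and 50.5 in control cells and 57.1 for the single KD peak of 2554 bp that spans both. The peaks near Otx2 and Atoh7 moved by -1.44 and 4.75 points. The peak at Sepw1 in the Crx window, at the start of a gene that is no member, moved up by 9.87 points. H3K4me3 was kept at 2 of 2 peaks, against 89.9% of all control peaks, and no KD peak was without a control peak, against 2.65%. The H3K4me3 peak of Lhx2 changed from a fold of 6.79 at percentile 13.9 to 5.66 at percentile 10.7.

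**Figure D5:**
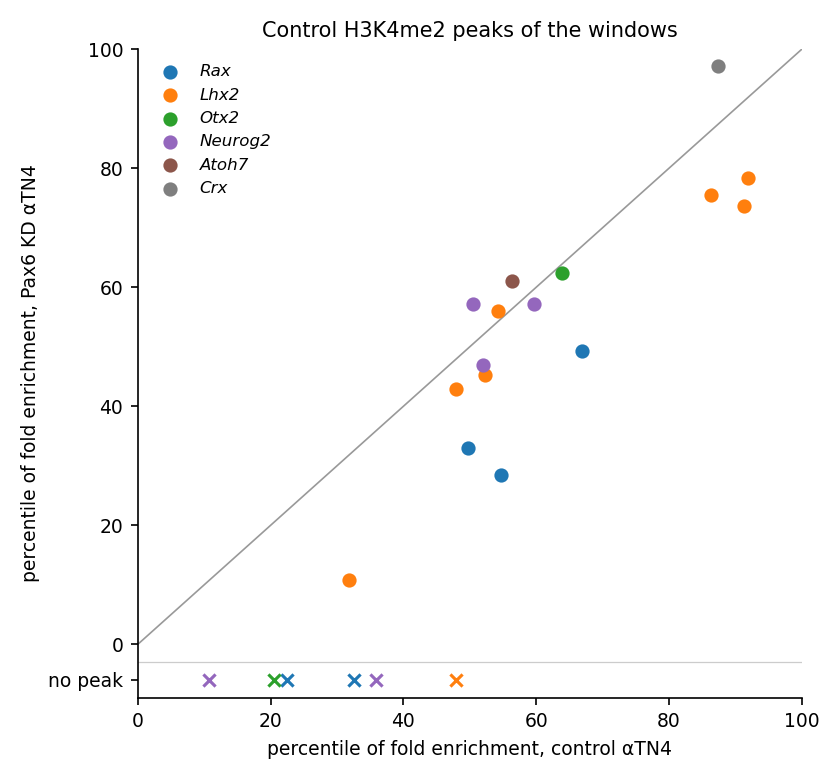
Percentile of fold enrichment of each control H3K4me2 peak of the windows in its list (horizontal) and of the strongest overlapping Pax6 KD peak in its list (vertical), coloured by gene, with crosses for the 6 control peaks without a KD peak and a grey line of equality. The peaks of Rax and most of Lhx2 lie below the line, and those of Neurog2, Otx2 and Atoh7 lie near it.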

How the data were processed

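ChIP-seq region lists were used as deposited, on mm9. The authors aligned reads with Bowtie and used MACS2 to call Pax6, Pol2, H3K4me2 and H3K4me3 peaks and SICER to call H3K4me1 islands (window 200 bp, gap 600 bp, FDR 0.001), and state that blacklisted regions were removed. Fold enrichment in the peak lists is a ratio over the local background, deposited by the authors with the −log10 p and q of each peak. Each island comes with the authors' count of ChIP reads, their count of control-library reads (called input reads here, as the library is not named), the fold ratio, a p-value and an FDR. One label field names the Pax6 and Pol2 antibodies the other way round, and these libraries were assigned by title. Names of H3K4me2 peaks hint at pooled replicates, which is not stated. The depth of the peak libraries is unknown.

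Genes and starts are protein-coding records of GENCODE vM1. Overlap was at least 1 bp, a start window 2 kb either side, and a gene window the gene body plus 50 kb. Percentiles rank peaks by fold within a list. Kept regions are those of control cells that a Pax6 KD region of that mark overlapped. For H3K4me1, ChIP read density (KD over control, log2) was centred on the median of islands paired 1 to 1. Intervals are 95% Wilson or, for read ratios, exact binomial, and cover counting error only. No test was made, as each mark has 1 list per condition, without values by replicate. RefSeq promoters were found for 7 of 8 members. The overlap code was tested on simulated data. The members and gene lists were chosen with earlier results of these data known, all members are reported, and other genes are named only where they share a pattern or marker list. Alternatives covered start and flank widths, thresholds, overlap and scaling. Scripts ran under Python 3.11.15 with pandas 2.3.3, NumPy 2.4.6, matplotlib 3.10.9 and SciPy 1.17.1.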

Additional observations from a re-analysis of the deposited data

How the results depend on the processing

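With a stricter threshold (−log10 q of at least 5, or an FDR of at most 1e-06), starts widened to 5 kb or narrowed to 1 kb, or 50% of a region covered, every result stayed within 1.5 times its value or within its interval, except that Pax6 KD H3K4me1 was then in 1 window under the stricter threshold. With the 5′ end of the gene record as the 1 start, Pol2, H3K4me1 in control and H3K4me3 in control and Pax6 KD cells were at 0 members. With a flank of 10 kb, windows with Pol2 numbered 1, with control and KD H3K4me1 2 and 0, with control and KD H3K4me2 3 and 3, and with control and KD H3K4me3 1 and 1. The regions in those windows numbered 1 for Pol2, 2 and 0 for H3K4me1, 10 and 7 for H3K4me2, 1 and 1 for H3K4me3 and 57 for lens H3K4me2, and 0% of control H3K4me1 islands were kept. With a flank of 100 kb, windows with Pol2 and with control and KD H3K4me3 numbered 5 each, and the regions numbered 11 for Pol2, 30 and 15 for H3K4me1, 51 and 46 for H3K4me2, 9 and 11 for H3K4me3 and 130 for lens H3K4me2, while 43.3% of control H3K4me1 islands were kept. Counting only regions whose nearest start is that of the member, Pol2 and control and KD H3K4me3 were in 1 window with 1 region each, control H3K4me1 had 5 regions, and 0% of them were kept. Of 137 values recomputed, 97 kept to these limits, 40 moved and 0 reversed. Input scaling, RefSeq starts and start regions of 2 kb and 10 kb left their results within these limits. The 5′ end, RefSeq starts, nearest starts and start region widths were chosen after seeing the data. No paired analysis was possible because each ChIP-seq mark has 1 list per condition. No replicate could be left out.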
